A study of Mus musculus with 27 samples.

Results

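AKR/J fetal brain was compared with Cav1-null fetal brain on day 12 of pregnancy (d12). The members were chosen by strain and day, and were 6 of the 27 RNA-seq libraries of the study: 3 from AKR/J and 3 from Cav1-null fetuses. The series held 9 groups of 3 libraries, since C57BL/6J was sampled beside these strains and each strain was also sampled on d15 and d17, with the day of the vaginal plug counted as day 1. The dams were about 8 weeks old, RNA came from the whole fetal brain, and every library was labelled female. AKR/J is an inbred albino strain with a short life span, known for leukemia driven by endogenous retroviruses. Cav1-null (B6.Cg-Cav1tm1Mls/J) carries a targeted disruption of Cav1 on a C57BL/6J background. A difference between these groups therefore holds the strain background and the loss of Cav1 together, and these cannot be told apart from the 6 libraries alone. The levels in C57BL/6J on d12 are given beside some genes. The labels did not give the litter of a fetus, so the p-values measure the spread between these libraries.

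At this stage the neural tube is changing from a sheet of dividing progenitors into a brain that makes neurons. Radial glia and their precursors line the ventricles and divide. Their daughters leave the cell cycle, switch on doublecortin, tubulin and tau, and later build synapses and receptors. Red blood cells in the fetal circulation are then still largely of the primitive kind made in the yolk sac, which use embryonic globins. Cav1 encodes caveolin-1, the main coat protein of caveolae, small pits of the plasma membrane that are frequent in endothelial cells.

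Gene levels are given here as scaled CPM, the CPM of a gene (its share of the library's reads on a fixed scale) after correction of the library total by TMM factors. Fold changes are log2 values of AKR/J over Cav1-null, so a positive value is higher in AKR/J. A gene was called when edgeR's quasi-likelihood test gave a Benjamini-Hochberg adjusted p below 0.05 over all genes tested. The check of the labels came first. Cav1 (chromosome 6, 17306140 to 17341451, GRCm39) was at 15.6, 10.7 and 9.24 scaled CPM in the AKR/J libraries and at 0.0689, 0 and 0.212 in the Cav1-null libraries. It differed by a log2 fold change of 6.90 ± 0.73 (SE, n = 3 and 3, edgeR quasi-likelihood adjusted p = 0.00107). The groups did not overlap, as their labels require. Of the 10 genes of the caveola list, 9 were tested, and Cav1 was the only one called.

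Several libraries stood apart from their labels or from their group. Cav1-null library 2 had Xist at 3.70 scaled CPM and the Y-linked genes Ddx3y, Eif2s3y, Kdm5d and Uty at 62.9 to 140, against its female label. AKR/J library 1 had Xist at 2770 together with Y-linked reads at 5.93 to 17.7. Emx1, a transcription factor of the dorsal telencephalon, was at 17.1, 17.4 and 1.32 scaled CPM in AKR/J and at 31.5, 24.6 and 6.19 in Cav1-null. Tbr1, a transcription factor of early cortical neurons, was at 49.9, 40.3 and 0 against 82.8, 65.4 and 7.70. In the C57BL/6J libraries of d12 Emx1 was at 31.6, 48.5 and 14.7, and Tbr1 at 123, 157 and 36.6. Library 3 was the lowest of its group for both genes in all 3 strains. The summed level of 30 Hox genes, which are active in the hindbrain and spinal cord, was 67, 3.39 and 5.94 in AKR/J and 1.17, 0.306 and 71.3 in Cav1-null, so that AKR/J library 1 and Cav1-null library 3 stood apart. En2, a transcription factor of the midbrain and hindbrain border, was at 0.783, 20.7 and 74.8 against 11.6, 9.76 and 42.2. In C57BL/6J it was at 3.25, 92.2 and 106, so that library 3 was the highest of its group in all 3 strains. Whether the dissected region differed between libraries, or the libraries of one number shared a batch, was not tested. Library totals ran from 28025320 to 35743241 reads over the 6 libraries. The TMM scale factors were 0.679, 1.07 and 0.688 in AKR/J and 0.992 to 1.12 in Cav1-null. Counts are therefore also given with the first pair (AKR/J library 1 and Cav1-null library 2) or the second pair (library 3 of both groups) left out.

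**Figure D1:**
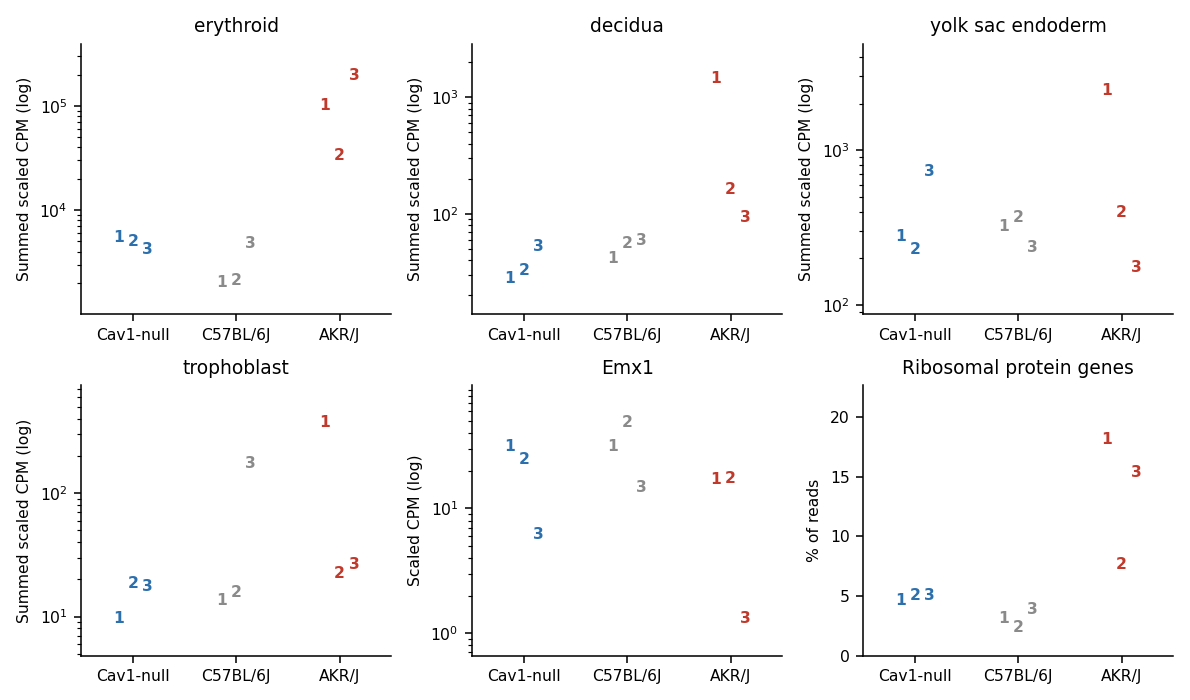
Day 12 libraries of the 3 strains, each drawn as its replicate number: the summed scaled CPM of 4 marker lists and the level of Emx1 on log axes, and the percent of reads in ribosomal protein genes on a linear axis. AKR/J libraries 1 to 3 lie above all Cav1-null libraries for erythroid and decidual genes, and AKR/J library 3 is the lowest of all at 1.32 for Emx1.

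Of the 55416 genes in the table, 19955 had enough reads to be tested. The test called 3906 genes (19.6% of those tested), with 1925 higher in AKR/J (9.65%) and 1981 lower (9.93%). Scaled by library size alone, 960 genes were higher and 2397 lower. The scaled CPM of the groups did not overlap for 8011 genes (40.1%). Among called genes whose groups lay apart and whose mean log2 CPM reached 3, the largest rises included retrocopies of ribosomal protein genes (Rpsa-ps10, Rpl17-ps5 and Rps2-ps10), the predicted gene Gm46209, the decidual genes Prl8a2 and Erv3, and Afp, the alpha-fetoprotein of the yolk sac and liver. The 10 largest falls were Hba-a2, ENSMUSG00000095041, which has no entry in GENCODE vM39, and the following: the NMDA receptor subunit Grin2b, the potassium channel Kcnk9, the glycine receptor subunit Glra2, Dpp10, Ppp2r2c, Ablim3, Ppp1r14c and the peptide transporter Slc15a2. The number called rested strongly on single libraries. It was 405 (2%) without AKR/J library 1 and Cav1-null library 2, and 1034 (5.12%) without library 3 of both groups. Leaving out 1 library gave 9.91%, 35.1% and 9.75% of genes called without AKR/J libraries 1, 2 and 3, and 5.97%, 6.85% and 12.7% without Cav1-null libraries 1, 2 and 3, or 1272 to 7370 genes.

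Genes of young neurons were lower in AKR/J. Dcx, the microtubule protein of migrating young neurons, was at 326, 412 and 395 scaled CPM in AKR/J and at 1420, 1550 and 1330 in Cav1-null. Mapt, which encodes tau, was at 58.4, 87.3 and 73.2 against 375, 439 and 414. For both genes each AKR/J library lay below each Cav1-null library. Dcx fell by 1.88 ± 0.25 (SE) on the log2 scale (edgeR quasi-likelihood adjusted p = 0.00282) and Mapt fell by 2.44 ± 0.22 (adjusted p = 0.000552, edgeR). Of the 30 genes of the early postmitotic neuron list, all were tested, 14 fell and 1 rose, against 9.93% and 9.65% of all genes. The list had a median log2 fold change of -0.87 against -0.01 over all genes. The one that rose was Neurod1, a transcription factor of newborn neurons, by 0.80 ± 0.19 (SE). Neurod2, which acts in cortical neurons, fell by 3.05 ± 0.88, and its 0.610 scaled CPM in AKR/J library 3 stood far below the 13.4 and 19.7 of the other AKR/J libraries. Myt1l, a repressor of non-neuronal genes, was at 24.5 to 45.7 against 134 to 143, a fall of 2.05 ± 0.25.

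Genes of the synapse and of transmitter receptors moved in the same direction. Of the 30 synapse genes, 22 fell and none rose, against 9.93% and 9.65% of all genes, with a median of -1.16. Syt1, the calcium sensor of vesicle release, was at 21.8, 24.4 and 21.7 scaled CPM in AKR/J and at 81, 107 and 74.1 in Cav1-null, a fall of 1.90 ± 0.19 (SE, edgeR adjusted p = 0.000744). Camk2b, a subunit of the calcium-dependent kinase of the postsynapse, was at 3.63, 8.78 and 6.76 against 50, 54.5 and 53.2. The groups lay apart for both genes.

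Of the 23 glutamate receptor genes, 12 fell and none rose, against 9.93% and 9.65% of all genes, with a median of -1.22. Grin2b (chromosome 6, 135690231 to 136150548) was at 3.87, 10.7 and 5.49 scaled CPM in AKR/J and at 79.4, 85.9 and 84.8 in Cav1-null. It fell by 3.58 ± 0.36 (SE, edgeR adjusted p = 0.000829). Grm5, a metabotropic receptor, was at 0.907, 0.658 and 0.711 against 15.2, 15.7 and 13.6, a fall of 4.23 ± 0.29. Gria2, the AMPA receptor subunit that limits calcium entry and the most abundant member, fell by 1.35 ± 0.26. Of the 16 genes of GABA receptors and chloride transport, 11 fell and none rose, against the same shares, with a median of -1.30. Gabbr2 fell by 2.30 ± 0.35 and Gabra3 by 1.90 ± 0.20, while Gabbr1, the most abundant member, did not pass the test (log2 fold change -0.61 ± 0.22, edgeR adjusted p = 0.0884).

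Some genes of inhibitory neurons and of glia were also lower. Of the 20 genes of the GABAergic neuron list, 5 fell and none rose, against 9.93% lower and 9.65% higher of all genes. Isl1, a transcription factor of several neuron classes, was at 36.1, 21 and 14.8 scaled CPM against 81.4, 93.7 and 51.6. Gad2, which makes GABA, fell by 1.27 ± 0.24 (SE). Of the 23 tested genes of the astrocyte and oligodendrocyte lineage, 7 fell and none rose, against the same shares of all genes. Aldoc fell by 3.13 ± 0.30 and Nfix by 1.47 ± 0.43. Of 25 blood vessel genes 6 fell and none rose, and of 18 tested genes of sensory ganglia 4 fell and none rose, against these same shares. The blood vessel list was nearly level, with a median of -0.09, 14 members below 0 and 11 above. The GABAergic list had 1 and 6 genes lower with the first and the second pair left out, the glial list 1 and 2, the blood vessel list 1 and 3, and the ganglia list 1 and 1. Without the second pair 2 blood vessel genes were also higher, and without Cav1-null library 3 alone 2 were higher and 2 lower. Rgs5, a pericyte gene, was at 13.7, 9.71 and 21.8 against 73.7, 73.2 and 78.9.

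The neuronal counts shrank, and did not turn, when the doubted libraries were left out. Without library 3 of both groups, 9 early neuron, 13 synapse, 7 glutamate receptor and 5 GABA receptor genes fell and none of them rose. Without AKR/J library 1 and Cav1-null library 2, the counts were 2, 5, 4 and 1, again with none higher. Leaving out 1 library gave 7 to 15, 16 to 24, 7 to 13 and 7 to 12 genes lower. In the same AKR/J libraries erythroid genes held 3.59 to 13.6% of reads and ribosomal protein genes 7.64 to 18.1%, against 0.465 to 0.561% and 4.61 to 5.07% in Cav1-null. Of the 3034 protein-coding genes with the most exon bases, 18.4% were lower and 4.42% higher in AKR/J, with a median log2 difference of -0.21. The part of these shifts in the neuronal counts was not tested. In bulk tissue, fewer neurons and less neuronal RNA per cell cannot be told apart. C57BL/6J library 3 of d12 was the lowest of its group for these lists. Its summed level of glutamate receptor genes was 694 scaled CPM, against 1400 and 1490 in the other C57BL/6J libraries and 539 to 720 in AKR/J. Its early neuron, synapse and GABA receptor sums of 5930, 1700 and 656 lay above each AKR/J library. Its GABAergic neuron sum was 851, against 572 to 864 in AKR/J.

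**Figure D2:**
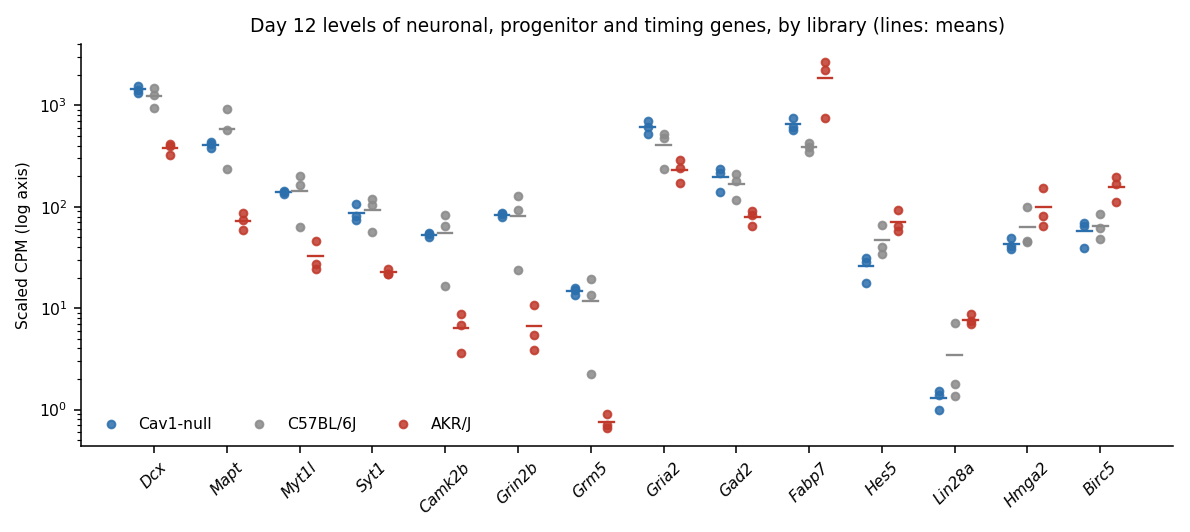
Scaled CPM of 14 genes in the 9 libraries of d12 on a log axis, with 1 point per library and a line at the mean of each strain. Each AKR/J library lies below each Cav1-null library for Dcx to Gad2, and above for Hes5, Lin28a, Hmga2 and Birc5, while 1 AKR/J library overlaps Cav1-null for Fabp7.

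Progenitor genes did not share one direction. Of the 24 radial glia genes, 4 rose and 2 fell, against 9.65% and 9.93% of all genes, with a median of 0.23. Fabp7, the brain fatty acid-binding protein, was at 2220, 753 and 2660 scaled CPM in AKR/J and at 575, 757 and 616 in Cav1-null, so that AKR/J library 2 lay within the Cav1-null range. Hes5, a target of Notch that keeps cells undifferentiated, was at 64.1, 57.2 and 92.4 against 28.8, 31.4 and 17.7, and rose by 1.51 ± 0.26 (SE, edgeR adjusted p = 0.0079). Slc1a3, a glutamate transporter, was at 29.5, 31 and 29.5 against 74.1, 86 and 94.8, and fell by 1.45 ± 0.16. Of the 16 neurogenic progenitor genes 4 rose, Neurod4 by 1.62 ± 0.28 and Neurog1 by 1.31 ± 0.32 among them, and 2 fell. These rises were lost with either pair left out. Of the radial glia genes edgeR then called none higher and 1 lower without the first pair, and none higher and 2 lower without the second, with 5 and 4 higher at an unadjusted p below 0.05. Of the neurogenic progenitor genes it called none without the first pair, and none higher and 2 lower without the second, with 4 higher at an unadjusted p below 0.05 in both cases. Over the 6 libraries DESeq2 called 9 and 6 genes of these lists.

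The summed level of mitosis genes was 3460, 3300 and 3200 scaled CPM in AKR/J and 3250, 3340 and 1760 in Cav1-null, so that the groups overlapped and Cav1-null library 3 stood apart. That of DNA replication genes was 2110, 1780 and 1960 against 1800, 1870 and 1120, again with Cav1-null library 3 the lowest. Of 25 DNA replication genes 5 rose and none fell, against 9.65% and 9.93% of all genes, with Gins2 at 71, 37.4 and 66.3 scaled CPM against 23.8, 23.5 and 18.3. Of 25 mitosis genes 2 rose, a share below that of all genes, Birc5 by 1.51 ± 0.28 (SE) and Cenpa by 1.06 ± 0.23, and none fell. Mki67, the general mark of cycling cells, was at 439, 511 and 359 against 451, 439 and 233 and did not pass the test (log2 fold change 0.27 ± 0.29, edgeR adjusted p = 0.556). Scaled by library size alone, the median of all genes moved to -0.41, and the medians of the replication and mitosis lists moved from 0.32 and 0.39 to -0.06 and -0.02. With either pair left out edgeR called none of these genes. At an unadjusted p below 0.05, 7 replication and 3 mitosis genes were higher and none lower without the first pair, and 6 and 2 were higher and 1 of each lower without the second. Over the 6 libraries DESeq2 called 7 and 6 of them.

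The Lin28 timing list held the RNA-binding proteins and chromatin factors of early progenitors. Of its 16 genes 6 rose and 2 fell, against 9.65% and 9.93% of all genes, so that the falls were close to their share. Lin28a, which blocks the maturation of let-7 microRNAs, was at 7.05, 8.69 and 7.42 scaled CPM in AKR/J and at 0.999, 1.53 and 1.38 in Cav1-null. It rose by 2.61 ± 0.32 (SE, edgeR adjusted p = 0.00198). Trim71, a target of let-7, rose by 2.03 ± 0.43 and Hmga2 by 1.26 ± 0.31. The genes that fell, Nfib (by 1.27 ± 0.30) and Nfia (by 0.90 ± 0.25), encode nuclear factors that come on as progenitors mature. With the first pair left out 1 gene of this list rose, and with the second 2 rose. None fell in either case by edgeR's test, with 6 higher and 3 lower at an unadjusted p below 0.05 in both.

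The direction of many of these genes was compared with their change over time in C57BL/6J, whose libraries did not enter the strain comparison. Between d12 and d15, 1356 genes rose in C57BL/6J (7.08% of those tested) and 1494 fell (7.80%). Of the rising genes, 1305 were tested on d12, where 578 (44.3%) were lower in AKR/J and 15 (1.15%) were higher. Of the falling genes, 1492 were tested, and 462 (31.0%) were higher in AKR/J while 10 (0.670%) were lower. The median log2 fold changes of AKR/J over Cav1-null were -0.90 for the rising and 0.54 for the falling genes. Over 18517 genes, the strain difference and the time change had a Pearson r of -0.46 and a Spearman rho of -0.56, given as a description since genes are not independent. Without AKR/J library 1 and Cav1-null library 2 the counts were 83 and 24, and without library 3 of both groups they were 206 and 27.

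The level of these genes was then compared between libraries. The mean log2(scaled CPM + 1) of the rising genes was 3.10, 3.20 and 3.12 in AKR/J on d12, and 3.87, 3.88 and 4.05 in Cav1-null. In the C57BL/6J libraries of d12 it was 3.98, 4.24 and 3.55. In the Cav1-null libraries of d15 it was 4.65 to 4.69, and in the AKR/J libraries of d15 4.32 to 4.42. In the AKR/J libraries of d17 it was 4.90 to 5.01. The C57BL/6J values of d12 and d15 took part in the choice of these genes. The AKR/J libraries of d12 were thus the lowest of all 27 on this measure. For the falling genes the AKR/J libraries of d12 were the highest, at 6.14, 5.76 and 6.06, against 5.47, 5.53 and 5.18 in Cav1-null. The exact stage of each fetus was not given in the sources used here, and a difference of stage between the groups cannot be told apart from one of strain.

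**Figure D3:**
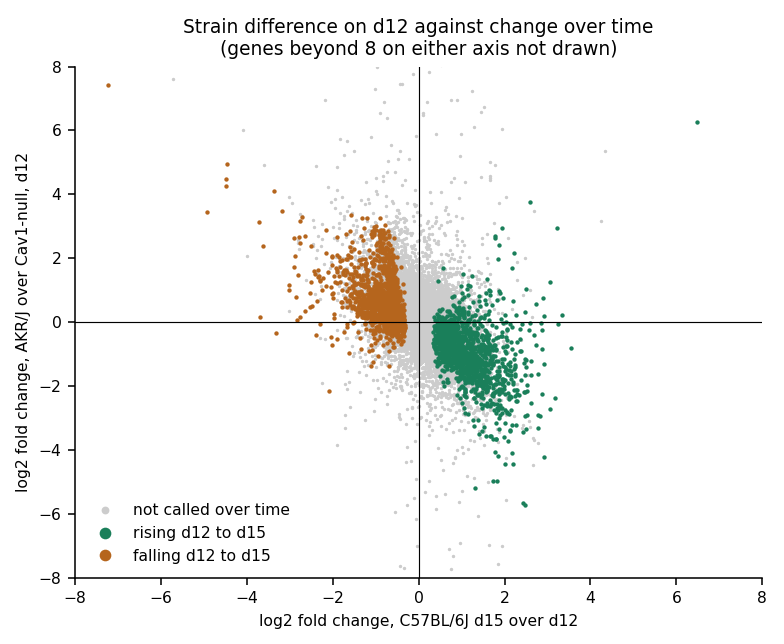
Log2 fold change of AKR/J over Cav1-null on d12 (vertical) against that of d15 over d12 in C57BL/6J (horizontal), with 1 point per gene. Genes that rose over time in C57BL/6J lie mostly below 0 and those that fell mostly above 0, with medians of -0.90 and 0.54.

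Genes of red blood cells were higher in AKR/J. Of the 23 erythroid genes, 20 rose and 1 fell, against 9.65% and 9.93% of all genes, with a median of 3.26. Hbb-y, the main embryonic beta-like globin, was at 84200, 26000 and 165000 scaled CPM in AKR/J and at 3360, 3150 and 2750 in Cav1-null, a rise of 4.94 ± 0.92 (SE, edgeR adjusted p = 0.00968). Hbb-bh1, another embryonic globin, was at 8140, 1540 and 11500 against 38.1, 46.2 and 41.9. Erythroid genes held 6.91, 3.59 and 13.6% of all reads of the AKR/J libraries and 0.465 to 0.561% of those of Cav1-null. Their count stayed at 17 to 20 higher when 1 library was left out, and was 12 and 15 without the doubted pairs of libraries.

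Decidual, trophoblast and yolk sac genes were highest in AKR/J library 1. Of 17 tested decidual genes 10 rose and none fell, of 15 tested trophoblast genes 8 rose, and of 15 tested yolk sac genes 10 rose. These counts are a description, since 7, 21 and 13 listed genes had too few reads to be tested and 2, 9 and 7 had no read in Cav1-null. A gene that is nearly absent from Cav1-null could pass the filter only through AKR/J, which sets its direction. Prl8a2, a prolactin-related hormone of the decidua, was at 586, 71.8 and 23.8 scaled CPM in AKR/J and at 0, 0.245 and 0.106 in Cav1-null. Afp was at 1040, 135 and 15.8 against 0.138, 0.489 and 0.582. The summed level of the decidual list was 1440, 163 and 93.6 in AKR/J and 27.5 to 52.4 in Cav1-null. That of the trophoblast list was 373, 22.3 and 26.6 against 9.65 to 18.5. Of the 36 trophoblast genes, 9 had no read in any Cav1-null library, Prl7a1 among them. Prl7a1 was at 34.6, 1.51 and 2.23 scaled CPM in AKR/J, so that most of its reads were in library 1. The yolk sac list summed to 2430, 397 and 175 against 230 to 733, so that these groups overlapped. Without AKR/J library 1 and Cav1-null library 2, 3 decidual, 2 trophoblast and 4 yolk sac genes rose. Without library 3 of both groups the numbers were 2, 1 and 15. Ttr, shared by yolk sac and choroid plexus, did not pass the test. The fit without the genes of the blood, trophoblast, decidua and yolk sac lists called 3886 genes (19.5%), which says nothing of RNA from these tissues in other genes. The part of that RNA in the other results was not tested.

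Skeletal muscle and connective tissue genes gave no calls by edgeR's test (of 13 and 23 tested). At an unadjusted p below 0.05 there was 1 of each, and DESeq2 called 1 and 0. Leaving out Cav1-null library 3 called 15 connective tissue genes higher. Of 15 tested genes of epidermis, lens and pigment 5 rose, led by the keratins Krt8 and Krt18, against 9.65% of all genes. Without the first pair edgeR called none of them, with 6 higher and 1 lower at an unadjusted p below 0.05, and without the second 7 rose. In this list 7 genes had too few reads to be tested and 2 had no read in Cav1-null, so the limit from the filter given above holds here too. Of 21 microglia genes 2 were higher, Tyrobp and Aif1, a share close to the 9.65% of all genes. Without the first pair none was called, with 2 higher at an unadjusted p below 0.05, and without the second 1 was. Of 16 choroid plexus genes 3 rose, against 9.65% of all genes, and Kcne2 fell by 4.42 ± 0.63 (SE). With the first pair left out none of the choroid plexus genes rose by edgeR's test, with 3 higher at an unadjusted p below 0.05, and 2 fell. With the second left out 1 rose and 1 fell. None of 6 tested pituitary genes was called by edgeR or DESeq2 or had an unadjusted p below 0.05, and of the 30 Hox genes 1 was tested and not called.

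**Figure D4:**
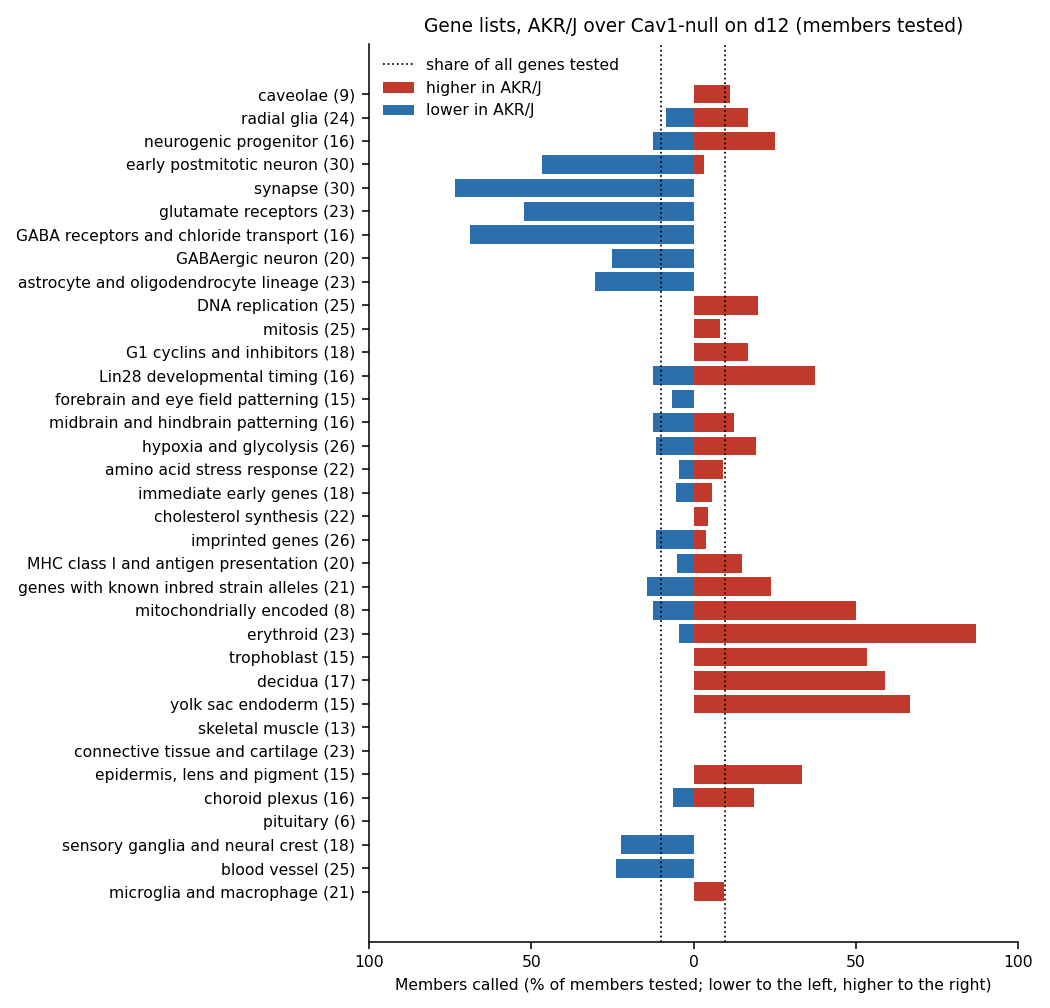
Share of the tested members of each gene list (the Hox list left out) that was called higher (right) or lower (left) in AKR/J on d12, with the number tested in parentheses and dotted lines at the shares over all genes tested (9.65% and 9.93%). Synapse and receptor lists extend to the left and the erythroid and extraembryonic lists to the right.

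Most ribosomal protein genes rose in AKR/J, a set that was chosen after its values were seen. Of 83 tested, 68 rose and 1 fell, against 9.65% and 9.93% of all genes, with a median of 2.10. They took 18.1, 7.64 and 15.3% of the reads in the AKR/J libraries and 4.61 to 5.07% in the Cav1-null libraries. Rps27 was at 4470, 912 and 4310 scaled CPM against 409, 499 and 493. These calls rested on the full set of libraries. Without AKR/J library 1 and Cav1-null library 2 edgeR called none of the 83, with 62 higher at an unadjusted p below 0.05 and a median of 1.78. When library 3 of both groups was left out it again called none, with 61 higher at an unadjusted p below 0.05 and a median of 1.95. Leaving out 1 library gave 2 higher without Cav1-null library 1 and up to 78 without AKR/J library 2. With library sizes alone 64 rose and the median was 1.53. Nuclear genes of the respiratory chain, chosen in the same way, rose in 40 of 78 cases with none lower by edgeR's test, and in 1 and 2 cases without those pairs of libraries. Their median was then 1.07 and 1.12, against 1.26 over the 6 libraries, with 40 and 35 higher at an unadjusted p below 0.05. Of the 8 tested genes encoded by mitochondrial DNA 4 rose and 1 fell. mt-Nd1, a subunit of complex I, was at 30400, 6850 and 20000 scaled CPM against 3400, 4200 and 3180, and mt-Nd2 behaved alike with a rise of 2.29 ± 0.59 (SE). With either pair left out edgeR called none of the 8, with 2 higher and 1 lower at an unadjusted p below 0.05 without the first pair and 1 and 1 without the second, while DESeq2 called all 8 over the 6 libraries. mt-Nd3 fell, from 46 reads in Cav1-null to 2 in AKR/J. mt-Nd4l, mt-Co2, mt-Atp6 and mt-Atp8 were listed at 0 in both groups, and reads removed in counting cannot be told apart from absent ones.

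These sets hold many short genes, and the calls followed length. Among protein-coding genes, those with the fewest annotated exon bases (93 to 3477, 3034 genes) had 18.1% called higher and 6.30% lower, with a median of 0.33. The 3034 genes with the most (9999 to 123193) had 4.42% higher and 18.4% lower, with a median of -0.21. Without the ribosomal protein and respiratory chain genes the shortest class had a median of 0.31. Without the doubted pairs the medians were 0.19 and 0.33 for the shortest class and -0.18 in both cases for the longest. On d15 the medians of the same classes were 0.01 and 0.03. These classes were set after the values of the ribosomal protein genes were seen. Ribosomal protein genes had a median of -0.31 on d15, where none was called higher and 38 were called lower. RNA integrity was not given in the sources used here, and its part in these differences was not tested.

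Processed pseudogenes, copies of messenger RNAs put back into the genome, were among the largest rises. Of 760 tested, 224 rose (29.5%) and 16 fell. These counts are a description, since a copy with almost no read in Cav1-null could pass the filter only through AKR/J, which sets its direction. Without AKR/J library 1 and Cav1-null library 2, 76 rose and none fell by edgeR's test, and without library 3 of both groups 84 rose and 2 fell. A copy can be nearly identical to its parent, and reads of the pair can then be mixed. Rpsa-ps10 matched the coding sequence of Rpsa, a protein of the small ribosomal subunit, at 879 of 885 bases (99.3%), and Rps7-ps3 matched Rps7 at 579 of 582 (99.5%). The 120-base stretches that hold the most differences show how little separates them, with the differing bases in capitals. They are read in the sense of the gene, from chr3:149778961-149779080 (minus strand, GRCm39) for Rpsa-ps10 and chrX:151692994-151693113 (minus strand) for Rps7-ps3, and from the GENCODE vM39 transcripts for the parents.
Rpsa-ps10: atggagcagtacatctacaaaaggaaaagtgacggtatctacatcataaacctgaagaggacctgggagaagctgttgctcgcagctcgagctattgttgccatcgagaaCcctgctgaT
Rpsa: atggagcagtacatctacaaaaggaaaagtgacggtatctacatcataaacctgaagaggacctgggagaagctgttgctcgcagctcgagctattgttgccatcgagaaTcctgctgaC
Rps7-ps3: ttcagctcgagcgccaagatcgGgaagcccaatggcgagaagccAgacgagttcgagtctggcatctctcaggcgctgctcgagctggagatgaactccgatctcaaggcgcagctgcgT
Rps7: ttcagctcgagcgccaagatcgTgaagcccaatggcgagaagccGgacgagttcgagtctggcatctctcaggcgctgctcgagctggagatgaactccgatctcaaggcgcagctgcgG

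Rpsa-ps10 was at 1710, 670 and 1420 scaled CPM in AKR/J and at 0.517, 0.826 and 0.344 in Cav1-null, a rise of 11.19 ± 0.61 (SE, edgeR adjusted p = 5.73e-05). Its parent Rpsa was at 3190, 1280 and 2690 against 1570, 1750 and 1420 and did not pass the test (log2 fold change 0.64 ± 0.38, edgeR adjusted p = 0.273). The copy lay apart between the groups by far more than its parent. The C57BL/6J libraries of d12 were not uniform, with Rpsa-ps10 at 177, 0.473 and 203. Rps7-ps3 was at 878, 208 and 658 against 0.999, 1.07 and 1.06, while Rps7 rose by 2.42 ± 0.53. Rps2-ps10 rose by 10.71 ± 0.59 and its parent Rps2 was nearly level (0.07 ± 0.38). Of 118 processed pseudogenes whose named parent was also tested, 63 rose and none fell by edgeR's test, with the same limit from the filter, and these 63 had 53 different parents, of which 29 rose and 5 fell. For Tdg-ps2 the parent went the other way: Tdg, a DNA repair glycosylase, was at 31.6, 35.9 and 36.5 against 129, 123 and 93.8. Gm46209 had 4376 reads in AKR/J and 1 in Cav1-null, a ratio of 5860 with a counting interval of 1050 to 231000.

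The neighbouring alpha globin genes moved in opposite directions. Hba-a2 (chromosome 11, 32246168 to 32247320) was at 4.04, 1.55 and 6.10 scaled CPM in AKR/J and at 330, 298 and 229 in Cav1-null. It fell by 6.17 ± 0.49 (SE, edgeR adjusted p = 0.000295), while 20 other erythroid genes rose. Hba-a1, its neighbour, was at 3630, 2620 and 9550 against 539, 495 and 406 and rose by 3.50 ± 0.55. The coding sequences of the pair differed at 1 of 426 bases in GENCODE vM39, so the split of reads between them is uncertain.

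The difference was then followed to d15 and d17, in libraries from other fetuses. Of the genes called on d12, 365 were also higher and 600 also lower on d15, which was 19% and 30.3% of the d12 calls and 18.8% and 30.7% of those of d15. On d15 9.6% of genes were higher and 9.7% lower in AKR/J, and on d17 5.73% and 6.67%. On all 3 days 239 genes were higher in AKR/J (1.2% of those tested on d12) and 335 were lower (1.68%). Together these 574 became 187 without the first pair, 302 without the second and 354 without Cav1-null library 1. Processed pseudogenes made up 85 of the 239 (35.6%) and 6 of the 335, with the limit from the filter on low counts given above. Calls of opposite sign on d12 and d15 were made for 233 genes higher on d12 and for 42 genes lower on d12. The difference itself changed between d12 and d15 for 3191 of 21774 genes (14.7%, edgeR interaction test), with the d12 value lower for 1712 (7.86%) and higher for 1479 (6.79%). The 3191 became 1587 without the first pair, 2020 without the second, 1883 without Cav1-null library 1 and 7275 without AKR/J library 2.

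Among genes with known inbred strain alleles, 5 of 21 tested rose and 3 fell, against 9.65% and 9.93% of all genes. The counts were 3 and 1 without the first pair and 3 and 2 without the second. Alad, an enzyme of heme synthesis that is duplicated in some strains, was at 131, 95.9 and 179 scaled CPM in AKR/J and at 19.6, 21.9 and 16.9 in Cav1-null. It rose by 2.84 ± 0.25 (SE, edgeR adjusted p = 0.000499), and was at 48.8 ± 3.70 against 18.9 ± 1.30 (SD, n = 3) on d15. Glo1, a detoxifying enzyme also duplicated in some strains, rose by 1.28 ± 0.20 on d12 and by 1.04 on d15. Trim12a fell by 4.90 ± 0.69 on d12, to 0.138 ± 0.0961 against 4.34 ± 2.60 (SD, n = 3), and was at 2.34, 1.77 and 3.71 in C57BL/6J. Ifi202b, an interferon-induced gene, had 664 reads in AKR/J and 1 in Cav1-null, and was at 0, 0 and 1.21 scaled CPM in the C57BL/6J libraries of d12. Apoa2, on the same list, was at 164, 7.90 and 5.23 against 0.551 to 0.794, and is also a gene of the yolk sac list. Of 20 tested genes of MHC class I and antigen presentation 3 rose and 1 fell, against 9.65% and 9.93% of all genes. H2-D1 rose by 1.36 ± 0.34 on d12 and by 2.40 on d15. On d15 1 of 21 tested genes of this list was called higher and 5 were called lower. Without the first pair edgeR called none of the antigen presentation genes, with 4 higher and 2 lower at an unadjusted p below 0.05, and without the second 2 rose. Mapping of AKR/J reads to a C57BL/6J genome can lower such counts, and its part was not tested.

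Slc7a11, the cystine and glutamate exchanger, was a lasting difference outside these lists of alleles. It was at 88.1, 67.1 and 115 scaled CPM in AKR/J and at 12.5, 10.2 and 13.4 in Cav1-null, a rise of 2.95 ± 0.24 (SE, edgeR adjusted p = 0.000327). On d15 it was at 157 ± 35.5 against 11.5 ± 0.951 and on d17 at 155 ± 16.8 against 20.6 ± 5.53 (SD, n = 3). The C57BL/6J libraries of d12 had Slc7a11 at 13, 17.7 and 8.73, overlapping those of Cav1-null and below each AKR/J library. In the amino acid stress list to which it belongs, 2 of 22 genes rose, Slc7a11 and Trib3, and Vldlr fell, against 9.65% and 9.93% of all genes (2 rose and none fell by edgeR with either pair left out, with 0 and 1 lower at an unadjusted p below 0.05), while Atf4, a transcription factor of this response, did not pass the test. Within 5 Mb of Cav1, 32 other genes were tested, of which 5 rose and 6 fell on d12 and 1 was lower in AKR/J on all 3 days, against 9.65%, 9.93% and 1.68% of all genes. The last was Gm15581 (17206822 to 17385603), a long noncoding RNA gene whose span holds Cav1. It was at 0.0412, 0 and 0 scaled CPM in AKR/J and at 2.41, 2.14 and 1.98 in Cav1-null. The C57BL/6J libraries of d12 had it at 0, 0 and 0, so AKR/J and C57BL/6J were alike here.

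**Figure D5:**
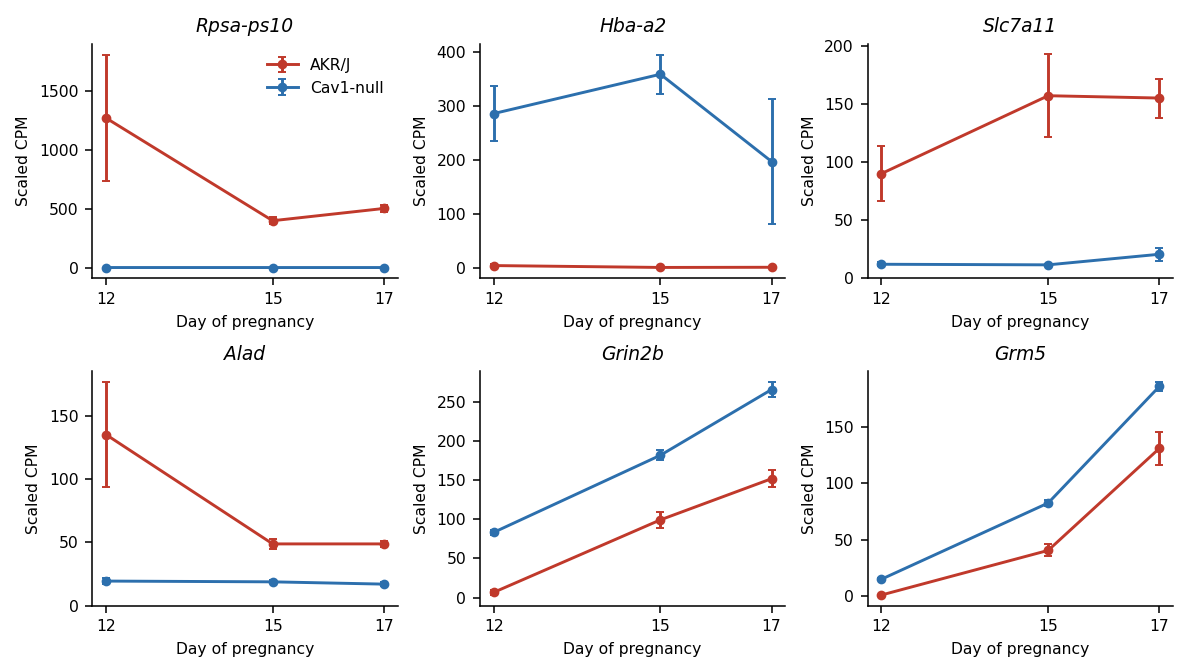
Mean scaled CPM ± SD (n = 3 libraries) of 6 genes in AKR/J and Cav1-null fetal brain by day of pregnancy. Rpsa-ps10, Slc7a11 and Alad stay above and Hba-a2 stays below Cav1-null on the 3 days, while Grin2b and Grm5 rise with the day in both strains.

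The remaining lists are read against the 9.65% of all genes higher and 9.93% lower. Of 26 genes of hypoxia and glycolysis 5 rose and 3 fell, Higd1a by 1.38 ± 0.32 (SE) up and Pfkp by 1.48 ± 0.34 down. Of 26 imprinted genes 1 rose, the noncoding RNA Kcnq1ot1, and 3 fell, Usp29, Magel2 and Meg3. Of 22 cholesterol synthesis genes Idi1 alone rose, and of 18 immediate early genes Fos rose and Npas4 fell. Of 18 genes of G1 cyclins and inhibitors 3 rose (Ccne2, Ccnd3 and Ccne1) and none fell. Of 15 forebrain and eye field genes 1 fell, Six6, from 1.96 to 4.62 scaled CPM in Cav1-null to 0 to 0.165 in AKR/J. Of 16 midbrain and hindbrain genes 2 rose (Lmx1a and Otx2) and 2 fell, Gbx2 by 2.03 ± 0.25 among them. Without the first pair edgeR called no gene of the hypoxia or the midbrain and hindbrain list, with 3 higher in each and 4 and 2 lower at an unadjusted p below 0.05. Without the second 1 hypoxia gene rose and 1 midbrain and hindbrain gene fell. Of the G1 genes none and 1 rose with the first and the second pair left out, with 4 higher at an unadjusted p below 0.05 in both cases. Of the imprinted genes none rose and 1 fell without the first pair, with 1 higher at an unadjusted p below 0.05, and 1 rose and 2 fell without the second. In both cases edgeR called no immediate early or cholesterol gene. At an unadjusted p below 0.05, 0 and 4 immediate early genes were then higher and 1 lower in each case, and 1 and 2 cholesterol genes were higher and 0 and 1 lower.

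Splice junction reads were a second readout of the same libraries. Of 55670 junctions, 1684 had at least 10 reads over the AKR/J libraries and none in Cav1-null, and 1425 had the reverse. These numbers were 1931 and 1663 without the first pair, and 1954 and 1497 without the second. The authors filtered out junctions that held multi-mapped reads, so a 0 can be a removed junction. Among the 1684, 311 had at least 100 reads in 1 AKR/J library and 0 in another. Junctions read in each of the 3 libraries of one group and in none of the other numbered 439 and 827. At Cav1, the junction at chromosome 6, 17306479 to 17307879, had 8, 21 and 4 reads in AKR/J and none in Cav1-null. The next junction, from 17308045 to 17339111, had 17, 18 and 12 reads against 0, 0 and 2. At Nnt, a mitochondrial enzyme gene in which C57BL/6J is known to carry a deletion of exons, the junction at chromosome 13, 119509128 to 119518211, had 9, 11 and 17 reads in Cav1-null and 14, 20 and 7 in C57BL/6J, and none in AKR/J. Nnt itself, counted over the gene, did not pass the test on d12.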

How the data were processed

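RNA was extracted from whole fetal brain, poly-A selected and sequenced by the authors. Per the labels, FastQC, cutadapt, fastp, STAR, edgeR and bedtools were used on GRCm39, and the tool that counted reads per gene is not given in the sources used here. The deposited tables hold raw read counts per gene and read counts per splice junction, with no normalization. Gene positions came from GENCODE vM39 on the same build, which matched 54749 of 55416 gene identifiers.

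Genes were filtered with filterByExpr, scaled by TMM and tested with glmQLFit and glmQLFTest (edgeR 4.0.16, R 4.3.3) on the 6 libraries of the comparison. SE was taken as the absolute log2 fold change over the root of F. The d12 to d15 difference was an interaction term over 12 libraries, and C57BL/6J time genes came from their own fit. Scaled CPM used TMM factors over all 27 libraries. Alternatives were DESeq2 1.42.0, likelihood ratio tests, other scalings, filters and models, and left-out libraries, 2 pairs of which were chosen after seeing the data. Junctions were compared by reads without a test.

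The members, the 36 gene lists and the tests were chosen with earlier results of these data known. Named genes were Cav1, the 10 largest rises and falls among called genes whose groups lay apart and whose mean log2 CPM reached 3, 6 of each among genes called on all 3 days, and up to 4 called members with the most abundant member of each list; predicted genes were named only among the 3 largest. Genes named outside this rule (Emx1, Tbr1, Rps27, Rps7-ps3, Tdg, Nnt, Gm15581 and others beside a list) were chosen after their values were seen. The pair fit, tested on simulated counts for 20168 genes, recovered 81.7% of genes changed by 3 on the log2 scale, 67.7% by 2 and 36.2% by 1. Beside 114 of 183 changed genes it called 10 unchanged ones. The interaction fit recovered 65.5%, 41.5% and 9.86% in the same order. The simulation held few changed genes, no broad shift of composition and no outlying library, so these shares need not hold for the real counts. Intervals and floors cover counting error only.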

Additional observations from a re-analysis of the deposited data

Results flagged for a closer look

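The difference between AKR/J and Cav1-null was not the same on d12 and d15. An interaction test over the 12 libraries of both days called 3191 of 21774 genes (14.7%, edgeR quasi-likelihood test), with 1712 differences lower and 1479 higher on d12. By list, the d12 difference was lower for 16 of 30 synapse, 11 of 30 early neuron, 8 of 23 glutamate receptor and 7 of 16 GABA receptor genes. It was higher for 17 of 23 erythroid genes and for 1 early neuron gene. The shares over all genes were 7.86% lower and 6.79% higher.

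Among the named genes, the log2 fold change on d12 minus that on d15 was -3.44 for Slc15a2, -2.75 for Ppp2r2c, -2.95 for Ablim3, -2.68 for Grin2b, -3.44 for Kcnk9, -2.77 for Dpp10, -1.62 for Ppp1r14c and -2.81 for Glra2. Each of these was lower in AKR/J on d12 by more than on d15. The value was 2.35 for Rps2-ps10 and 11.04 for Afp, both higher in AKR/J on d12. It was 3.62 for Hba-a2, which was lower on both days and by less on d12. The values of 16.93 for Prl8a2 and 9.90 for Erv3 rest on nearly no reads on d15, so their size depends on the fit. AKR/J library 3 of d15 had Xist at 3.29 scaled CPM and no read of Ddx3y, Eif2s3y, Kdm5d or Uty.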

How the results depend on the processing

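No named gene changed sign in a call under any setting run, but the counts of calls depended on single libraries. Against 3906 calls, DESeq2 gave 5152, RLE scaling 3908, the table without a low-count filter 4740 and at least 10 reads in every library 3591. With library sizes alone 960 genes were higher, and 243 of them were among the time-falling genes. One model of all 27 libraries gave 8307 calls, 3524 higher and 4783 lower, with 373 in the same direction on all 3 days and 929 time-rising genes lower and 733 time-falling genes higher. One model of the 9 d12 libraries gave 347 on all 3 days. Without AKR/J library 1 and Cav1-null library 2, an alternative chosen after seeing the data like the next, there were 405 calls, 212 higher and 193 lower, 187 on all 3 days, 1587 by interaction, and 83 and 24 for the time genes. Without library 3 of both groups there were 1034, 495, 539, 302, 2020, 206 and 27. When a log2 change of 1 or more either way was also asked for, 1231 genes were lower and 271 had the same direction on all 3 days. The cause of these shifts was not tested.

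Leaving out 1 library gave 1272 to 7370 calls, 504 to 3627 higher, 768 to 3743 lower, 354 to 671 on all 3 days, 1883 to 7275 by interaction, 318 to 697 time-rising and 93 to 721 time-falling genes. In each range the lowest was without Cav1-null library 1 and the highest without AKR/J library 2. Junctions read in 1 group only numbered 439 and 827 when read in each library, and for Cav1-null 794 with at least 20 reads and 2488 with up to 2 reads allowed in AKR/J. Leaving out 1 library gave 1276 to 2521 for AKR/J and 907 to 3102 for Cav1-null. The labels did not say whether the replicate numbers pair the samples. Libraries of the same number had correlations of -0.07, -0.01 and 0.19. The highest of all was 0.28, between AKR/J library 2 and Cav1-null library 1, while 0.19 was the highest for either library 3. On d12 library 3 was also the lowest for Emx1 and Tbr1 and the highest for En2 in each strain. The replicate block gave 3462 calls, of which 3150 were shared. Precision is limited by 3 libraries a group.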
